A study of Homo sapiens with 6 samples.

Results

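PTPRG and PTPRM are genes of receptor-type protein tyrosine phosphatases, and 18 of the 9857 circular RNAs (circRNAs) listed for the study come from them. Every circRNA with PTPRG or PTPRM as its host gene was taken, which gave 8 circles of PTPRG and 10 of PTPRM. These genes were chosen by their junction reads in cadmium-exposed against control cells, the same comparison as the one described here, so differences between the groups in junction reads of PTPRG and PTPRM are a description and not a test. Junction reads are sequencing reads that cross a back-splice junction, the point at which a splice runs backwards and closes the RNA into a circle. Junction reads for PTPRG circles were lower with cadmium, at 986 ± 122 CPM (counts scaled to a common library size) in cadmium-exposed cells and 2067 ± 204 CPM in control cells (SD, n = 3 libraries each), while those for PTPRM circles overlapped between the groups, at 644 ± 47.9 CPM with cadmium and 548 ± 162 CPM in control cells.

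Receptor-type tyrosine phosphatases cross the cell membrane once, sense ligands or neighbouring cells outside it and remove phosphate from tyrosines inside it, the reverse of what receptor tyrosine kinases do. PTPRG, also called receptor phosphatase gamma, carries a carbonic-anhydrase-like domain outside the cell that binds contactins, and is often described as a candidate tumour suppressor of lung and kidney. PTPRM, receptor phosphatase mu, carries a MAM domain with immunoglobulin and fibronectin repeats, binds to PTPRM on the neighbouring cell and is found with the cadherin complex at contacts between epithelial cells. A circRNA is a product of splicing without free ends, which makes it resistant to the exonuclease RNase R.

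The cells were BEAS-2B, an immortalised line from human bronchial epithelium. In 3 libraries the cells had been kept in 2.0 µM cadmium for 20 weeks and in the 3 control libraries at 0.0 µM for the same time, with exposure begun 6 hours after seeding and subculture every 3 days. All libraries were made from total RNA after removal of ribosomal RNA and digestion with 3 units of RNase R per µg, with a protocol that keeps the strand. The labels do not say whether the libraries of a group are separate cultures, so the spread and any p-value cover these libraries only and may be technical.

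The libraries held 133185 to 160248 junction reads with cadmium and 137919 to 225769 in control cells, with a median of 7 reads per circRNA and library. Control replicates 1 and 3 stood apart from the other libraries in the share of reads at a circRNA's locus that cross its junction. Here each junction read counts as 2 ends, over the 6090 circRNAs with a non-junction value in all libraries. The medians were 37.1% to 41.0% with cadmium and 34.5% in control replicate 2, against 54.5% and 58.1% in control replicates 1 and 3. The part of these libraries in the differences between the groups was not tested, and fold changes against control replicate 2 alone are given after the values of each gene. None of 11 epithelial, 4 leukocyte or 3 endothelial marker genes hosts a listed circRNA, and 2 of 11 mesenchymal ones do (ZEB1 and ZEB2, summed to 259 to 366 CPM with cadmium and 366 to 433 CPM in control cells), so junction reads cannot check the labelled cell type.

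All PTPRG circles lie between intron 1 and exon 4. PTPRG (ENSG00000144724) lies on the plus strand of chromosome 3 at chr3:61561569-62297613 (GRCh38, GENCODE 29), and its transcript PTPRG-201 has 29 exons. Its most abundant circle, hsa_circ_0002134, at chr3:61622463-61623555, spans 1093 bases inside intron 1 and has no end on an annotated exon bound. The exonic circle of PTPRG, hsa_circ_0066406, at chr3:61989625-62003497, joins the end of exon 4 to the start of exon 3, which together make 329 bases and code for part of the carbonic-anhydrase-like domain. PTPRM (ENSG00000173482), on the plus strand of chromosome 18 at chr18:7566782-8406861, has 31 exons in PTPRM-201. The junctions below are shown because they are what the reads of the exonic circles cross and because 3 of them share a side: capitals are the last 30 bases of the downstream exon and lower case the first 30 bases of the upstream exon, 5′ to 3′ on the plus strand, from the GENCODE 29 transcripts.
PTPRG hsa_circ_0066406, exon 4 to exon 3: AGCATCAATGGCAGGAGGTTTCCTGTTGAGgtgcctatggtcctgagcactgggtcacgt
PTPRM hsa_circ_0006114, exon 11 to exon 9: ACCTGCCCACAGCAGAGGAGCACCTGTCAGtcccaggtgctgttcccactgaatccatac
PTPRM hsa_circ_0007144, exon 14 to exon 9: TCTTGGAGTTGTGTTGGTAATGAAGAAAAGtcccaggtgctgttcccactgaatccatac
PTPRM hsa_circ_0002872, exon 14 to exon 12: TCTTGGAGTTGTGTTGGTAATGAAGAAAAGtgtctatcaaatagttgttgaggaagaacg
hsa_circ_0006114 and hsa_circ_0007144 share the lower-case side, the start of PTPRM exon 9, and hsa_circ_0007144 and hsa_circ_0002872 share the capitals, the end of exon 14.

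The exons that make up hsa_circ_0066406 are given whole, as the only PTPRG circle that the files class as exonic. Exon 3 is 180 bases at chr3:61989625-61989804 and exon 4 is 149 bases at chr3:62003349-62003497.
PTPRG exon 3: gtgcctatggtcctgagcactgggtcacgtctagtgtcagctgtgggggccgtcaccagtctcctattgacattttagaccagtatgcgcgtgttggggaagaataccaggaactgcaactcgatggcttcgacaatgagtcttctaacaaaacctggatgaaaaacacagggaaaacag
PTPRG exon 4: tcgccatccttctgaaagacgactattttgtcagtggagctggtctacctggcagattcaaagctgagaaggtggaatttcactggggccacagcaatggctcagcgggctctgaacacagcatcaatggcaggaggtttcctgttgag
The annotation of this circle also lists a block of 136 bases between these exons, at chr3:62001415-62001550, which is no GENCODE 29 exon and is not counted in its spliced length. The intron before exon 3 is 240642 bases long, the longest of PTPRG-201, and the intron after exon 4 is 74665 bases long. The shorter of these flanking introns was longer than the shorter flanking intron of 99.8% of 8684 exonic circRNAs, whose median was 3613 bases.

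The files class 7 of the 8 PTPRG circles as intronic, and 6 of these lie wholly within intron 1, which at 186505 bases is the second longest of the transcript. The other, hsa_circ_0002295, at chr3:61748878-61828817, starts at the start of exon 2 and ends inside intron 2. The circles in intron 1 share several blocks. A block of 82 bases at chr3:61622463-61622544 is listed in 5 of them, a block of 170 bases at chr3:61622971-61623140 in 5, and a block of 108 bases at chr3:61623448-61623555 in 4. hsa_circ_0002134 holds the first of these blocks and a longer block of 585 bases, chr3:61622971-61623555, that covers the rest of them. Blocks of 124 bases in hsa_circ_0008180, 116 bases in hsa_circ_0007038 and 176 bases in hsa_circ_0002848 are listed in no other circle of the gene. Blocks with gaps between them are common among the intronic circRNAs listed, 322 of 382 of which (84.3%) have at least 2. The deposited spliced length equals the whole span for all 7 intronic circles of PTPRG, which was so for 102 of the 382. None of the 6 intron 1 circles has an end on a GENCODE 29 exon bound, which was so for 56 of the 382 intronic circRNAs.

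**Figure D1:**
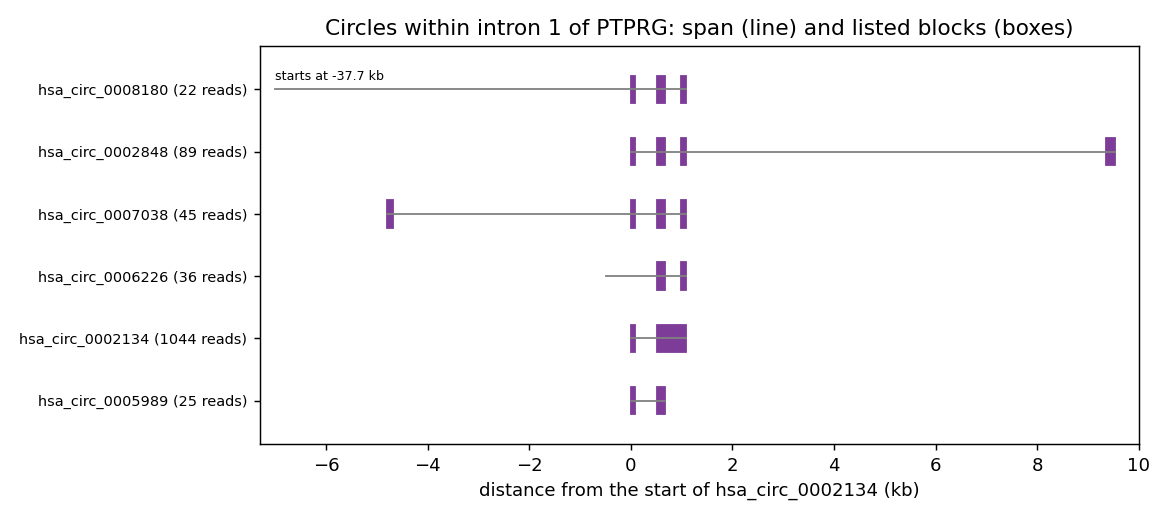
The 6 circles within intron 1 of PTPRG, with distance in kb from the start of hsa_circ_0002134 on the horizontal axis, lines for the span of each circle and boxes for the blocks listed in the annotation. Total junction reads over the 6 libraries stand beside each name: 4 of the circles end at the same position and 3 start at the same position. The span of hsa_circ_0008180 runs past the left edge.

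Shared ends carried most of the PTPRG reads, mainly through hsa_circ_0002134, which uses both positions below. That circle alone held 69.4% to 72.3% of the PTPRG reads of each library. The end at position 61623555 is used by hsa_circ_0002134, hsa_circ_0007038, hsa_circ_0006226 and hsa_circ_0008180, with 118, 94 and 111 junction reads in the cadmium libraries and 373, 195 and 256 in the control libraries. The start at 61622463 is used by hsa_circ_0002134, hsa_circ_0002848 and hsa_circ_0005989, with 110, 98 and 106 junction reads with cadmium and 384, 205 and 255 in control cells. Sharing an end is usual in these files, as 56.5% of intronic and 60.0% of exonic circRNAs share a start or an end with another.

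hsa_circ_0002134 had 103, 87 and 102 junction reads in cadmium replicates 1 to 3 and 344, 177 and 231 in control replicates 1 to 3. After scaling for library size these were 762, 630 and 651 CPM with cadmium and 1547, 1284 and 1390 CPM in control cells. Every cadmium library was below every control library. The means were 681 ± 70.8 CPM with cadmium and 1407 ± 132 CPM in control cells (SD, n = 3 each), a log2 fold change of −1.05 with a standard error (SE) of 0.16 in the quasi-likelihood fit of edgeR across all circRNAs. By mean CPM it ranked 95 among the 9857 circRNAs and 5 among the 382 intronic ones.

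The exonic circle hsa_circ_0066406 had 111, 72.4 and 115 CPM with cadmium and 252, 145 and 217 CPM in control cells, from 10 to 18 reads with cadmium and 20 to 56 in control cells. All cadmium libraries were again below all control libraries. The means were 99.4 ± 23.4 CPM with cadmium and 204 ± 54.4 CPM in control cells, a log2 fold change of −1.05 with an SE of 0.32. Against control replicate 2 alone its fold change was −0.55, while that of hsa_circ_0002134 was −0.92.

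The other PTPRG circles had far fewer reads. hsa_circ_0002848, at chr3:61622463-61631994, had 5, 9 and 4 reads with cadmium and 34, 21 and 16 in control cells, which gave 42.6 ± 20.4 CPM with cadmium and 134 ± 32.5 CPM in control cells and a log2 fold change of −1.65 (SE 0.42). hsa_circ_0002295 had 8, 8 and 8 reads with cadmium and 21, 10 and 17 in control cells, or 56.0 ± 4.38 CPM with cadmium and 89.8 ± 15.4 CPM in control cells, with a log2 fold change of −0.69 (SE 0.38). Both had all cadmium libraries below all control libraries. hsa_circ_0007038, at chr3:61617660-61623555, had 8, 2 and 5 reads with cadmium and 10, 6 and 14 in control cells, with a log2 fold change of −0.70 (SE 0.57). hsa_circ_0006226, at chr3:61621970-61623555, had 7, 2 and 0 reads with cadmium and 9, 9 and 9 in control cells, with a log2 fold change of −1.27 (SE 0.79). In CPM the groups overlapped for both of these circles.

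The remaining PTPRG circles were too low for the test. hsa_circ_0005989, at chr3:61622463-61623140, had 2, 2 and 0 reads with cadmium and 6, 7 and 8 in control cells, without overlap. hsa_circ_0008180, at chr3:61584738-61623555, had 0, 3 and 4 reads with cadmium and 10, 3 and 2 in control cells, with overlap. Thus 6 of the 8 circles passed the filter on low counts, all 6 with a fold change below 0, beside 3047 of all 6182 circRNAs tested. All 8 had a lower mean with cadmium. However, hsa_circ_0006226, hsa_circ_0005989 and hsa_circ_0008180 stand at 0 in a cadmium library and so are listed through the control group only. That favours a lower cadmium mean, so nothing is read from the direction of these circles. Against control replicate 2 alone, all 6 tested circles stayed below 0, at −1.84 for hsa_circ_0002848, −1.58 for hsa_circ_0006226, −0.38 for hsa_circ_0002295 and −0.32 for hsa_circ_0007038. Single libraries moved the low circles far: hsa_circ_0006226 stood at −2.84 without cadmium replicate 1 and −0.67 without cadmium replicate 3, and hsa_circ_0007038 at −1.30 without cadmium replicate 1.

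**Figure D2:**
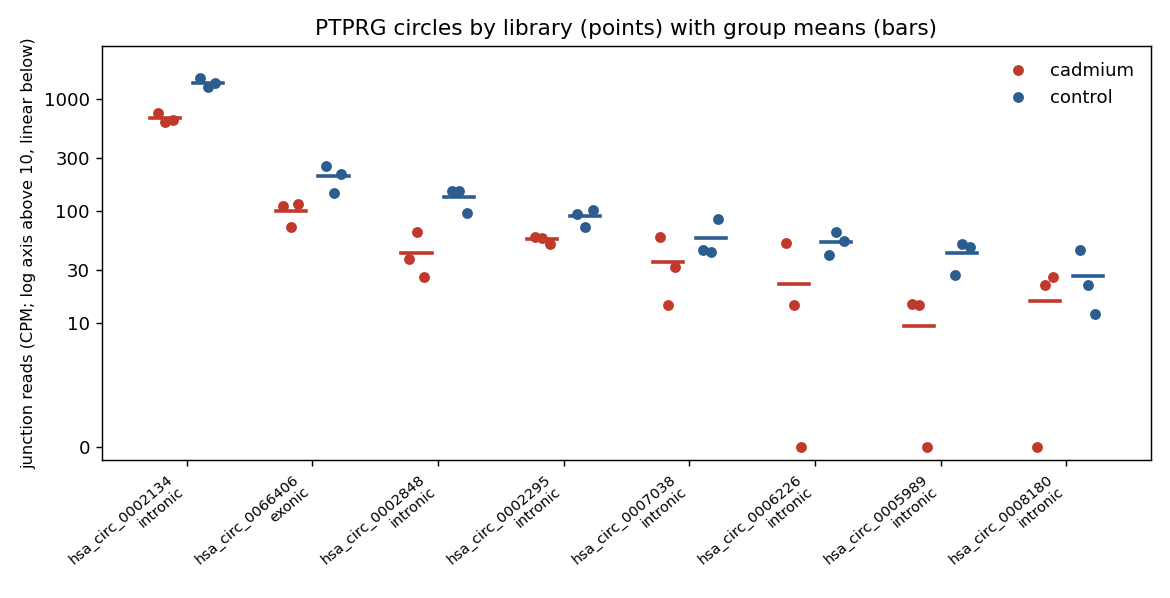
Junction reads in CPM (log axis above 10, linear below) for the 8 PTPRG circles, one point per library and a bar for each group's mean, cadmium in red left of control in blue. In 5 circles, 4 of them tested, every cadmium library lies below every control library, beside 7.78% of the circRNAs tested. The other, hsa_circ_0005989, was too low to be tested and is listed through the control group only. In hsa_circ_0007038, hsa_circ_0006226 and hsa_circ_0008180 the groups overlap.

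At a Benjamini-Hochberg adjusted p under 0.05 in edgeR, 1 PTPRG circle was called lower, hsa_circ_0002134, beside 0.0809% of the 6182 circRNAs tested (5 circRNAs). Of the 6 circles of PTPRG tested, 4 had all cadmium libraries below all control libraries, as did 7.78% of all circRNAs tested. PTPRG was chosen on this comparison, so nothing is read from either count. The sum of its circles was called lower too, beside 0.199% of 3008 host genes called lower and 0.233% called in either direction. In every cadmium library it was below every control library, as for 10.0% of host genes. The call of hsa_circ_0002134 was lost when control replicate 1, control replicate 3 or cadmium replicate 2 was left out, at log2 fold changes of −0.98, −1.08 and −1.02, and without control replicates 1 and 3 together, at −0.92.

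Summed over the 8 circles, PTPRG had 1126, 927 and 904 CPM with cadmium and 2259, 1854 and 2088 CPM in control cells. The cadmium mean was 47.7% of the control mean, and the log2 fold change was −1.07 (SE 0.14). The sum was lower also without its most abundant circle, which is a description only, since the other circles went into the choice of the gene too. Both sums also hold hsa_circ_0006226, hsa_circ_0005989 and hsa_circ_0008180, which are listed through the control group only, and that favours a lower cadmium mean. Without hsa_circ_0002134, an alternative chosen after seeing the data, the other 7 circles summed to 333, 261 and 249 CPM with cadmium and 656, 551 and 614 CPM in control cells, a log2 fold change of −1.12 (SE 0.19). With a lone control library, replicate 2, the fold change of the full sum was −0.93 and it was no longer called. In bulk RNA, fewer cells that make a circle and fewer copies per cell cannot be told apart.

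The make-up of the PTPRG reads was nearly the same in all libraries. hsa_circ_0002134 held 69.6%, 70.7% and 72.3% of PTPRG junction reads with cadmium and 70.2%, 70.0% and 69.4% in control cells. The widest exact Clopper-Pearson 95% interval, for cadmium replicate 2, ran over 61.9% to 78.6%, and such intervals cover counting error only. The 7 intronic circles together held 89.9%, 91.9% and 87.2% with cadmium and 88.6%, 92.1% and 89.2% in control cells. Their mean share was 89.7 ± 2.32% with cadmium and 90.0 ± 1.88% in control cells (SD, n = 3 each), a difference of −0.30 percentage points that is smaller than the spread within either group. For each read of the exonic circle there were 8.87, 11.3 and 6.83 intronic reads with cadmium and 7.75, 11.7 and 8.25 in control cells. The precision of this ratio is set by the exonic circle, with its 10 to 18 reads with cadmium and 20 to 56 in control cells.

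**Figure D3:**
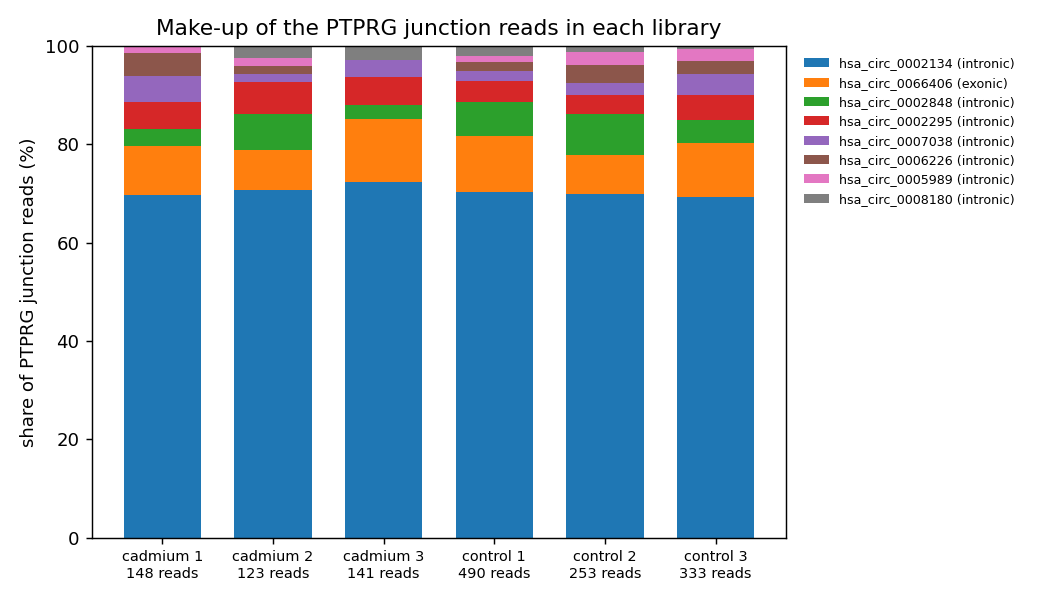
Share of PTPRG junction reads (%) from each of its 8 circles, stacked per library, with cadmium libraries left of control libraries and total PTPRG reads under each bar. The share of hsa_circ_0002134 lies between 69.4% and 72.3% in all 6 libraries although the totals run over 123 to 148 reads with cadmium and 253 to 490 in control cells.

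Over all intronic circRNAs of the files, fold changes lay on both sides of 0. Of 218 intronic circRNAs tested, 118 had a log2 fold change below 0 and 100 above, with a median of −0.04, and hsa_circ_0002134 was the only one called. The median over all circRNAs tested was 0.01. Whether PTPRG intronic circles differ from this class was not tested, since they were chosen on the same comparison.

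Of the 10 PTPRM circles, 7 are classed as exonic, and the exon ranges given here are read from their ends. hsa_circ_0006114 (exons 9 to 11, chr18:8076455-8088851) had 37, 34 and 45 reads with cadmium and 40, 0 and 50 in control cells. The 0 is in control replicate 2, and with no value of 1 in the table and a lowest member value of 2 above 0, a listed 0 need not mean that no read was there. Its log2 fold change was 0.70 with an SE of 0.85. This circle is listed through the cadmium group only, which favours a lower control mean, so nothing is read from its direction. hsa_circ_0007144 (exons 9 to 14, chr18:8076455-8143779), which starts at the same exon, had 13, 7 and 12 reads with cadmium and 16, 18 and 7 in control cells, with a log2 fold change of −0.09 (SE 0.46). Its listed blocks leave out exons 11 and 12. hsa_circ_0002872 (exons 12 to 14, chr18:8113486-8143779), which ends at the same exon as hsa_circ_0007144, had 6, 6 and 13 reads with cadmium and 7, 2 and 5 in control cells. In CPM it was the only PTPRM circle whose groups did not overlap, with 56.9 ± 22.5 CPM with cadmium and 25.4 ± 9.42 CPM in control cells, and its log2 fold change of 1.11 (SE 0.57) was not called. Over all circRNAs tested, 7.52% had every cadmium library above every control library.

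hsa_circ_0046813 (exons 15 to 17, chr18:8244058-8253414) had 8, 7 and 13 reads with cadmium and 14, 8 and 12 in control cells, with a log2 fold change of 0.00 (SE 0.40). Its listed blocks include a further one of 27 bases, and its deposited spliced length is 454 bases, against 415 for exons 15 to 17. novel_circ_0014367 (exons 3 to 4, chr18:7888106-7906583) had 5, 7 and 8 reads with cadmium and 2, 6 and 9 in control cells, with a log2 fold change of 0.45 (SE 0.64). Among the circles too low to be tested, hsa_circ_0004618 (exons 6 to 7) had 8, 0 and 0 reads with cadmium and 2, 2 and 11 in control cells. The only block listed for it is exon 6. hsa_circ_0046808 (exons 10 to 11) had 0, 9 and 0 with cadmium and 2, 7 and 4 in control cells. None of these 4 circles separated the groups.

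PTPRM also has 3 intronic circles, and all of them start in its first intron, the longest, of 206257 bases. hsa_circ_0004188 (chr18:7754373-7774271) ends at the end of exon 2 and had 0, 9 and 10 reads with cadmium and 10, 6 and 12 in control cells, with a log2 fold change of −0.28 (SE 0.67). novel_circ_0014361 (chr18:7755323-7774271) shares that end and had 0, 0 and 6 reads with cadmium and 9, 2 and 5 in control cells. hsa_circ_0008584 (chr18:7754373-7755920), inside intron 1, had 5, 2 and 2 reads with cadmium and 2, 8 and 2 in control cells. Groups overlapped for all 3 circles. The intronic share of PTPRM reads was 6.10%, 13.6% and 16.5% with cadmium and 20.2%, 27.1% and 16.2% in control cells, which overlap, against close to 90.0% for PTPRG.

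**Figure D4:**
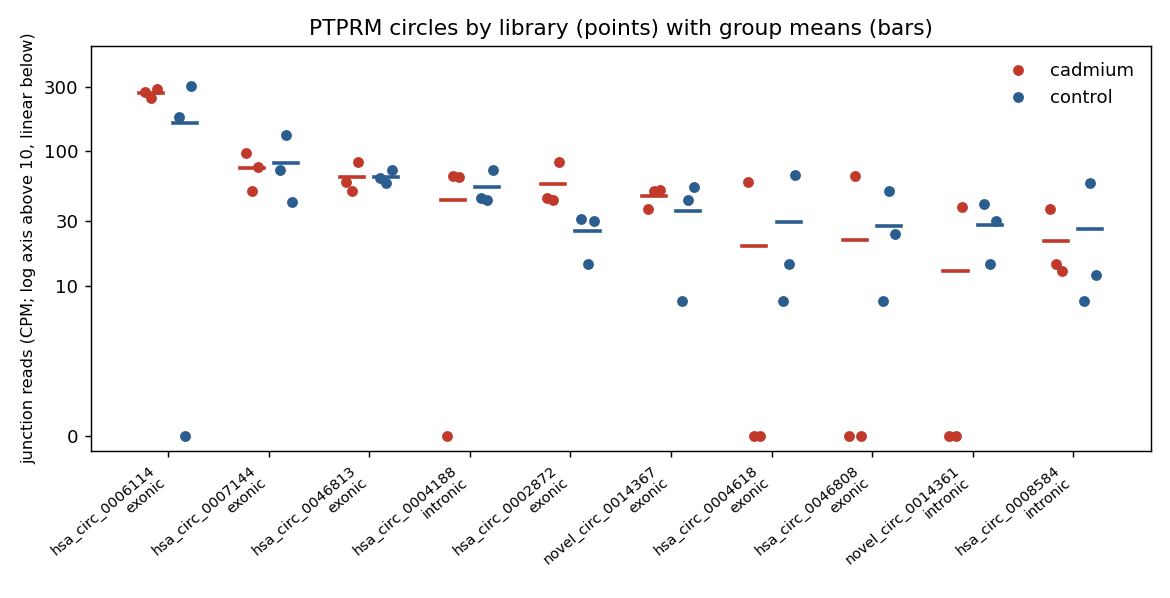
Junction reads in CPM (log axis above 10, linear below) for the 10 PTPRM circles, one point per library and a bar for each group's mean, cadmium in red left of control in blue. The groups overlap in 9 circles, and hsa_circ_0006114 is listed at 0 in control replicate 2.

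Summed over its circles, PTPRM had 624, 610 and 699 CPM with cadmium and 480, 432 and 734 CPM in control cells, with a log2 fold change of 0.24 (SE 0.20). The highest and the lowest libraries were both control libraries. Without control replicate 2, which holds the listed 0 of hsa_circ_0006114, the fold change was 0.11, and against control replicate 2 alone it was 0.56. Against that library alone, hsa_circ_0002872 stood at 1.92, hsa_circ_0007144 at −0.81, novel_circ_0014367 at 0.083, hsa_circ_0046813 at 0.15 and hsa_circ_0004188 at −0.0012. The sign of the sum turned without hsa_circ_0006114. Without that circle, an alternative chosen after seeing the data, the sums averaged 361 ± 41.6 CPM with cadmium and 373 ± 74.8 CPM in control cells, a log2 fold change of −0.030 (SE 0.21). Of 10 PTPRM circles, 5 were listed at 0 in at least 1 library, against 3 of the 8 PTPRG circles. Among those of PTPRM, hsa_circ_0006114 is listed through the cadmium group only. The others, hsa_circ_0004188, hsa_circ_0004618, hsa_circ_0046808 and novel_circ_0014361, are listed through the control group only. Nothing is read from the direction of these circles, and the full PTPRM sum holds all of them. PTPRG had more junction reads than PTPRM in each library of both groups.

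**Figure D5:**
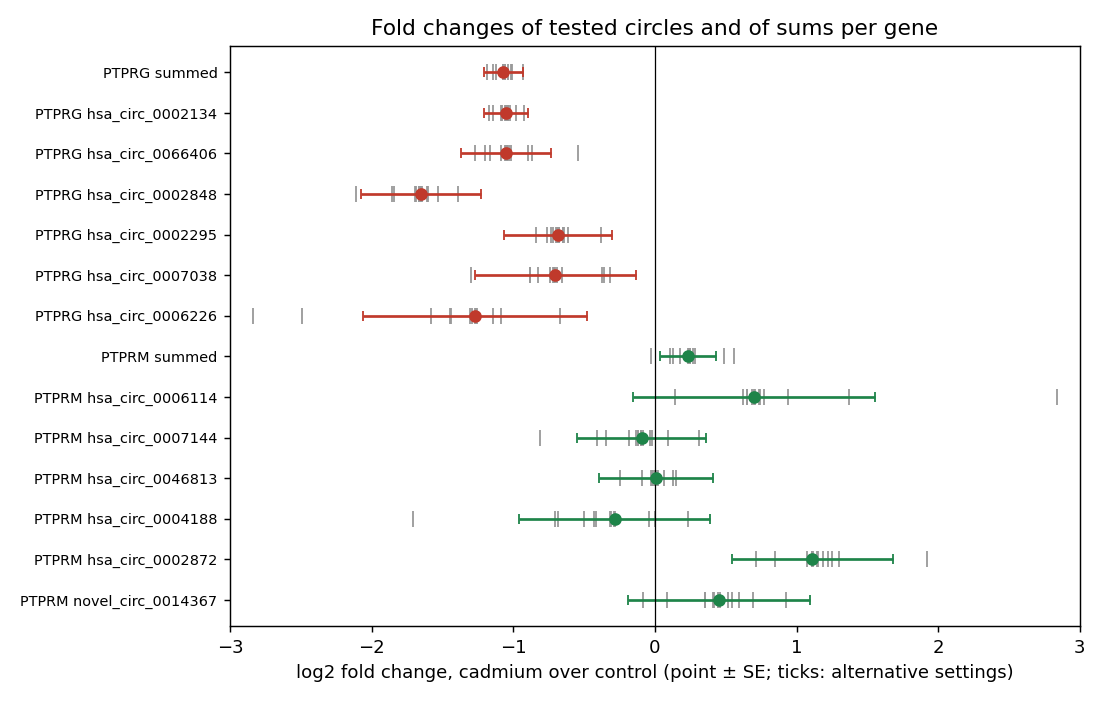
Log2 fold change, cadmium over control, with its SE, for the summed circles and the 6 tested circles of PTPRG (red) and of PTPRM (green), and grey ticks for the same value under the alternative settings. All PTPRG values lie below 0 under every setting drawn, and PTPRM values lie on both sides. The single value outside the axis is 8.26 for hsa_circ_0006114 against control replicate 2 alone, where it is listed at 0, a fitted value that is no bound.

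The authors' deposited table of fold changes puts hsa_circ_0002134 at a log2 fold change of −1.01, hsa_circ_0066406 at −0.85 and hsa_circ_0002848 at −1.16. For PTPRM, the authors' deposited table has hsa_circ_0006114 at 0.21 and hsa_circ_0002872 at 0.63. These have the same signs as the values above and are closer to 0. The authors' value for hsa_circ_0046813 was −0.0081, the opposite sign to its 0.0049 in the edgeR fit and not closer to 0.

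Non-junction reads are reads at the locus of a circle that do not cross its junction. No source used here says how they were counted. They come from the same libraries and the same comparison that chose the genes, so they are a description too. For hsa_circ_0002134 they numbered 32, 33 and 28 with cadmium and 99, 48 and 40 in control cells. Scaled like CPM to the summed non-junction reads of the 6090 circRNAs with a value in all libraries, these were 57.6, 62.9 and 42.3 with cadmium and 210.0, 80.2 and 129 in control cells, so these reads too were lower in all cadmium libraries. The share of its reads that crossed the junction, counting each junction read as 2 ends, was 86.6%, 84.1% and 87.9% with cadmium and 87.4%, 88.1% and 92.0% in control cells. The means were 86.2% with cadmium and 89.2% in control cells, and without control replicates 1 and 3 the difference was −1.88 percentage points in place of −2.99. These shares were far above the median circRNA of each library.

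The short hsa_circ_0005989 had more non-junction reads than the circle around it. It lies inside hsa_circ_0002134 and had 53 and 55 non-junction reads in the cadmium libraries where it is listed and 159, 73 and 97 in control cells, with 2 and 2 junction reads with cadmium and 6, 7 and 8 in control cells. For the exonic hsa_circ_0066406 the non-junction reads numbered 42, 21 and 34 with cadmium and 38, 61 and 33 in control cells. Its junction share was 41.7%, 48.8% and 51.4% with cadmium and 74.7%, 39.6% and 68.6% in control cells, with the high values in control replicates 1 and 3, the libraries that stand apart over all circRNAs. Of 5 PTPRG circles with a value in every library, 4 had fewer non-junction reads, scaled in this way, in every cadmium library than in every control library, as did 12.5% of 6090 circRNAs, and nothing is read from this count for the reason given above. Without scaling, 2 of the 5 did, beside 2.84% of the 6090. Of 5 such PTPRM circles 1 did with scaling and 0 without.

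Circles of related phosphatases gave no call. Of 18 other receptor-type phosphatase genes 4 host a listed circRNA and 3 could be tested, with 0 called by edgeR, DESeq2 or limma and 0 at an unadjusted p under 0.05, beside 12.5% of host genes at that unadjusted level in edgeR. PTPRK, of the same MAM-domain subfamily as PTPRM, had 108 ± 38.1 CPM with cadmium and 173 ± 9.11 CPM in control cells, a log2 fold change of −0.67 (SE 0.32) and an edgeR adjusted p of 0.403. Its cadmium libraries, at 82.9 to 152 CPM, were all below its control libraries, at 166 to 183 CPM, as for 10.0% of host genes. The groups overlapped for PTPRJ and PTPRA. PTPRJ, also known as DEP-1, had a log2 fold change of −0.75 (SE 0.57). PTPRA, which activates Src family kinases, had 1995 ± 163 CPM with cadmium and 1909 ± 86.9 CPM in control cells, a log2 fold change of 0.06. The median over the 3 tested receptor-type genes, which is the value of PTPRK itself, was −0.67, beside 0.00 over all host genes. Of 17 non-receptor phosphatase genes 7 could be tested, 3 with a fold change above 0 and 4 below, with a median of −0.03. Of these, 0 were called, beside 0.233% of host genes. PTPN14 stood at 0.84 (SE 0.39) and PTPN2 at −0.72 (SE 0.36), with overlapping groups. PTPN4, at −0.42 (SE 0.28), had all cadmium libraries below all control libraries, as for 10.0% of host genes. PTPN12, at 0.19 (SE 0.17), had all above, and the share of host genes with that order was not counted.

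Among 21 genes of ligands, cadherin partners and reported substrates of PTPRG or PTPRM, 6 host a listed circRNA and 5 could be tested. Of these, 0 were called by edgeR, DESeq2 or limma and 0 had an unadjusted p under 0.05. Over all host genes tested in edgeR, 0.233% were called and 12.5% had such an unadjusted p. The median log2 fold change of the 5 genes was −0.10. FGFR1, a receptor tyrosine kinase, had a log2 fold change of 0.52 (SE 0.29), CTNNA1, alpha-catenin of the cadherin complex, −0.10 (SE 0.16), and IQGAP1, a scaffold at cell contacts, −0.21 (SE 0.16). The cadmium libraries of FGFR1, at 167 to 188 CPM, were all above its control libraries, at 110 to 144 CPM. The share of all host genes with this order was not counted, so nothing is read from it. The groups overlapped for CTNNA1 and IQGAP1. No contactin gene hosts a listed circRNA.

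Circles of the genes around PTPRG lay on both sides of 0. Within 5 Mb on either side of its circles, 19 circRNAs of 8 other host genes were tested, 13 with a log2 fold change above 0 and 6 below, with a median of 0.20, 0 called by edgeR and 0 at an unadjusted p under 0.05, against 8.20% of all circRNAs tested. None had all cadmium libraries below all control libraries, against 7.78% of all circRNAs tested, and 2 of the 19 had all cadmium libraries above, against 7.52%. Around PTPRM, 47 circRNAs of 16 other host genes were tested, 14 with a fold change above 0 and 33 below, with a median of −0.22. Of these, 1 was called lower by edgeR, hsa_circ_0006990 of VAPA, against 0.0809% of all circRNAs tested. At an unadjusted p under 0.05 in edgeR there were 7 of the 47, against 507 of all 6182 circRNAs tested (8.20%). All cadmium libraries were below all control libraries for 8 of the 47, against 481 of the 6182 (7.78%). Both are larger shares than over all circRNAs tested. Whether either neighbourhood differs from all circRNAs was not tested.

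The host genes whose summed circles followed PTPRG most closely over the 6 libraries, by Pearson's r of log2 CPM among 1834 host genes with at least 100 CPM, were ENSG00000237975 (r = 0.997), RSRC1 (0.988), CEP128 (0.986), VCL (0.978) and FAM83D (0.975). All of these had every cadmium library below every control library, as for 10.0% of host genes. They were picked for following PTPRG, which was itself chosen on this comparison, so nothing is read from that order. The points also share libraries and depth. For PTPRM they were TTC1 (0.986), ENSG00000234129 (0.969), PILRB (0.969), PPP1R13B (0.964) and CTPS1 (0.961). Among 2115 circRNAs, those closest to hsa_circ_0002134 were hsa_circ_0004664 of SPAG16 (0.997), hsa_circ_0001355 of RSRC1 (0.988), hsa_circ_0002454 of DNAJC6 (0.978), novel_circ_0016395 (0.977) and hsa_circ_0000835 of MIB1 (0.977).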

How the data were processed

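Junction reads were measured in 6 libraries of BEAS-2B cells, 3 per treatment as given in the labels. The authors' deposited table gives junction read counts, whole numbers per the file headers, and lists only circRNAs with reads in all 3 libraries of a group. The deposited TPM equals the count over the library total, with no length term, and was used in 1 alternative. The authors' deposited comparison gives log2 fold changes and adjusted p-values, and only its log2 fold changes are quoted. The authors' annotation table gives position, class, host gene, junction and non-junction reads. The submitters' processing notes name hg19, Bowtie, Bowtie2 2.2.8 and DESeq 1.10.1 without their roles, but 97.9% of exonic starts and 98.0% of ends lie on GENCODE 29 exon bounds of GRCh38, so that build is used, with 1-based positions.

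Groups were compared by quasi-likelihood F-tests in edgeR 4.0.16 under R 4.3.3 (TMM, filterByExpr with a minimum count of 5 and total of 15, Benjamini-Hochberg adjustment), run on all circRNAs and on counts summed per host gene, and tested on simulated data. CPM use TMM library sizes. DESeq2 1.42.0, limma 3.58.1 on log2(TPM + 1), other size factors and filters, a replicate block and leaving out libraries were alternatives. Libraries with the same replicate number did not deviate together (r of 0.0002, 0.0216 and 0.0517), so numbers were not taken to pair libraries. No libraries were copies of each other: within groups their counts differed beyond sampling noise, with chi-square over its degrees of freedom at 1.59 to 2.49. Every circle of PTPRG and PTPRM is named, and beyond them the 5 most alike host genes and circRNAs and genes of the lists. Members and lists were chosen with earlier results of these data known.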

Additional observations from a re-analysis of the deposited data

How the results depend on the processing

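The summed PTPRG circles stayed below control and called in 14 of 15 alternatives. The exception left control replicate 2 as the lone control, assumed to vary like the cadmium libraries, where the log2 fold change was −0.93. Leaving out 1 library at a time gave −1.19 to −1.01. hsa_circ_0002134 kept its direction in all 14 alternatives and its call in 10, at −0.92 with control replicates 1 and 3 left out and −1.17 to −0.98 with 1 library left out. The replicate block gave −1.07 for PTPRG, −1.05 for hsa_circ_0002134 and 0.25 for PTPRM, and it changed no call of these. PTPRM turned to −0.030 without hsa_circ_0006114. Low circles of PTPRM changed sign: hsa_circ_0046813 at −0.030 with no filter, −0.0020 in DESeq2, −0.018 in limma, −0.011 with the replicate block and −0.25 to 0.12 with 1 library left out; hsa_circ_0007144 at −0.41 to 0.31, hsa_circ_0004188 at −0.71 to 0.23 and novel_circ_0014367 at −0.085 to 0.93 likewise. The causes were not tested.

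Over all circRNAs 5 were called, all lower with cadmium. There were 4 with the replicate block, all lower, and 3 without control replicates 1 and 3, all higher. With 1 library left out there were 0 (without control replicate 1) to 13 (without control replicate 2, 7 higher and 6 lower). Over host genes 7 were called, 1 higher and 6 lower, against 11 in DESeq2 (2 higher), 4 in limma (0 higher), 6 with the replicate block (2 higher), 3 without control replicates 1 and 3 (2 higher), and 3 to 13 with 1 library left out. Without control replicate 2 there were 10, 5 in each direction. Both gene lists had 0 called under both other size factors, DESeq2, the replicate block and each library left out. The intronic share differed by −1.40 to 0.92 percentage points across alternatives. The median of 7 reads per circRNA and library limits the precision for single low circles.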
